A study of Lathyrus oleraceus subsp. biflorus and Lathyrus oleraceus and [Pisum sativum] subsp. abyssinicum with 117 samples.

Results

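A set of 150 pea genes was described whose messenger RNA was at a higher level in young seeds than in maturing ones, in both the seed coat and the embryo. The genes were chosen from 31857 annotated genes (identifiers beginning with Psat) among 59594 features of the count table. Levels were read counts scaled to the library total (CPM, counts per 1000000), taken as log2(CPM + 1), averaged over the libraries of a line and then over Cameor, JI92, JI1794 and PI358617 at each stage. A gene was kept where its highest stage mean was at most 9 on the log2 scale in each tissue, where these 2 maxima differed by less than 1, and where the mean at D2 exceeded the mean at D5 in both tissues. This left 6166 genes, and the 150 with the largest value of the smaller of the 2 falls (D2 minus D5, in log2) were taken. D2 and D5 levels of these 4 lines therefore chose the genes, and they are given below as a description, with no test. Stages and tissues were tested only in 43 libraries that took no part in the choice, and the comparison of wild with domesticated peas, which needs libraries of the 4 lines, is given as a description.

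The seed coat is maternal tissue that surrounds the embryo, and the embryo, with its cotyledons, is the next generation. In pea, as in other grain legumes, both organs first grow by cell division and expansion. The cotyledons then fill with storage protein and starch while the coat passes nutrients to them, and at the end both lose water and the coat hardens. The identifiers of the files are not paired with gene names, and 0 of the 150 genes matched the 65673 genes of the supplied RefSeq table of another pea assembly, so no function is given for any of them.

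The study sequenced messenger RNA from untreated plants grown in a glasshouse, in 67 seed coat and 50 embryo libraries (117 in all) taken at stages D1 to D5. JI64, JI261 and JI1794 were wild peas (P. elatius), PI358617 was an Ethiopian pea (P. abyssinicum), and the domesticated peas (P. sativum) were the cultivar Cameor and the landrace JI92. Further seed coats of JI64 and JI92, taken at D1, D2 and D4, are labelled 2017. Groups held 1 or 2 libraries, and the labels do not say whether the 2 came from separate plants, so p-values measure the spread between libraries, which may be technical.

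The choice used 70 libraries of the main set of Cameor, JI92, JI1794 and PI358617. The 43 other libraries were seed coats of JI64 at D1 to D5 and of JI261 at D1, D3, D4 and D5, embryos of JI64 at D1 to D4 and of JI261 at D3 to D5, and the 2017 seed coats. Embryos at D1 came from Cameor, PI358617 and JI64 only, and entered neither the choice nor the mean of the 4 lines.

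Library totals ran from 56.97 M to 104.01 M counts (M, mega), with a median of 66.12 M. Tissue labels were checked with the 100 genes most enriched in the seed coat and the 100 most enriched in the embryo of PI358617 at D3 and D4, none of them among the 150. In the other accessions, 54 seed coat libraries held 2.44% to 23.3% of their counts in the seed coat list and 0.0917% to 8.66% in the embryo list, and 40 embryo libraries held 0.0167% to 0.615% and 12.98% to 55.7%. The other 3 seed coat libraries, all of JI64, stood apart. For replicate 2 at D1 the seed coat list made up 0.0772% of the counts and the embryo list 11.8%, which goes against its label. Replicate 1 at D5 held 0.113% in the seed coat list, with 18.9% of its counts in 1 feature and 87.7% in 50. Replicate 2 at D5 held 1.35% and 6.80%.

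The mean level of the 150 genes was lower at each later stage in both tissues. In the seed coats of the 4 lines the mean log2(CPM + 1) from D1 to D5 was 5.18, 4.56, 3.70, 3.34 and 2.03. In the embryos it was 5.06, 3.08, 2.92 and 1.66 from D2 to D5. The fall between D2 and D5 had a median over the genes of 2.35 (1.93 to 4.97) in the seed coat and of 3.24 (1.92 to 6.87) in the embryo, on the log2(CPM + 1) scale. It was larger in the embryo for 121 genes and larger in the seed coat for 29. Of the 6166 genes from which they were taken, 3921 fell more in the embryo and 2245 in the seed coat. Over the 19493 annotated genes with a highest stage mean of at least 1 the median falls were 0.154 and 0.073, and 7982 of those genes fell in both tissues. In tissue as a whole, fewer cells that express a gene and less of its RNA per cell cannot be told apart.

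**Figure D1:**
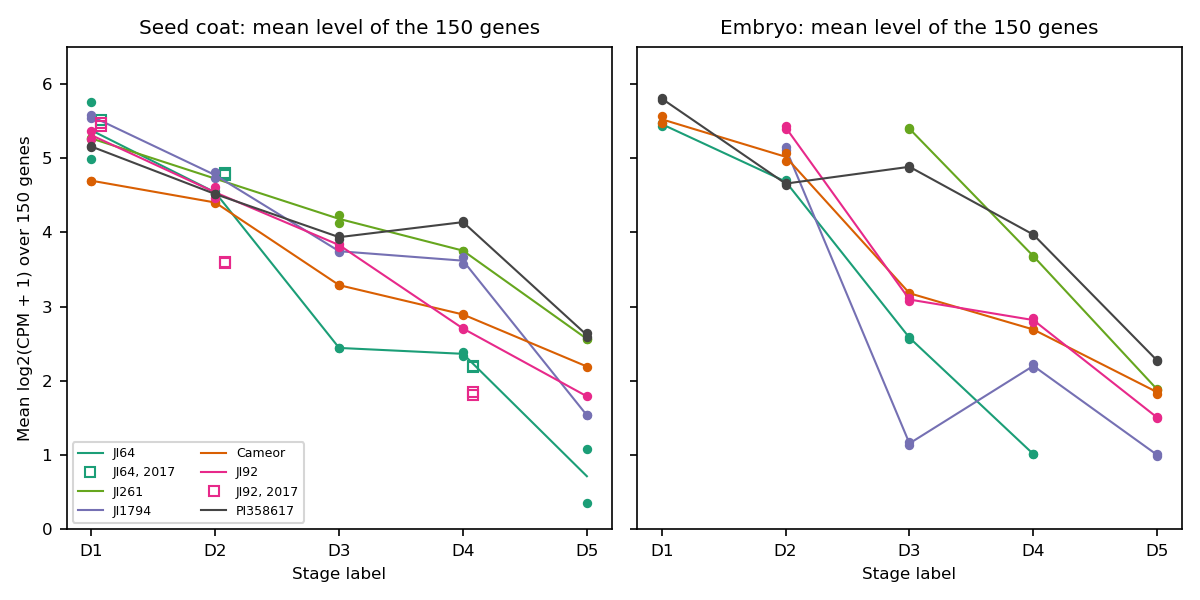
Mean log2(CPM + 1) of the 150 genes (vertical axis) at each stage label (horizontal axis) in the seed coat (left) and the embryo (right). Points are libraries, lines join the means of the main set of each accession, and open squares are the 2017 seed coats; levels fall along all lines except for the seed coat of PI358617 at D4 and the embryos of PI358617 at D3 and JI1794 at D4.

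At the top of the ranking, Psat2g169400 stayed high until D4 and dropped at D5. Its median over the seed coat libraries of the 4 lines was 46.9 (2.10 to 235), 217 (57.7 to 359), 102, 142 (76.2 to 326) and 12.8 (0 to 36.2) CPM at D1 to D5. In the embryo it was 141 (53.1 to 247), 101 (4.98 to 126), 96.8 (54.5 to 210) and 6.55 (0.244 to 33.7) CPM at D2 to D5. The D5 libraries lay below all D4 libraries of their own tissue, and the spread at D1 in the seed coat was wide.

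Psat5g147600 and Psat2g105760 fell earlier. Psat5g147600 had seed coat medians of 46.9, 46.8, 5.04, 2.79 and 0.397 CPM at D1 to D5, and embryo medians of 26.5, 3.75, 2.79 and 0.572 CPM at D2 to D5. Psat2g105760 had embryo medians of 43.7 (32.9 to 62.7), 1.63 (0 to 54.6), 0.413 (0.054 to 14.2) and 0 (0 to 1.40) CPM at D2 to D5. Its seed coat medians went down more evenly, with 36.9, 18.0, 9.74, 5.27 and 0.232 CPM at D1 to D5.

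Psat0s905g0040 and Psat6g157800 were next in the ranking of the smaller fall. Psat0s905g0040 had seed coat medians of 257, 107 and 37.9 CPM at D1 to D3 and 5.35 CPM at D5, and embryo medians of 126, 14.0, 9.38 and 2.44 CPM at D2 to D5. Psat6g157800 had seed coat medians of 94.8, 54.7, 30.8, 19.9 and 1.89 CPM at D1 to D5, and embryo medians of 78.3, 22.9, 13.9 and 3.44 CPM at D2 to D5. At D5 the embryo median of Psat6g157800 was above its seed coat median, while for Psat0s905g0040 it was below.

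Psat5g046240 differed between the tissues at D2. Its seed coat medians were 160, 16.0, 8.36, 2.92 and 0.161 CPM at D1 to D5, and its embryo medians 126, 23.7, 10.6 and 0.979 CPM at D2 to D5. Most of its seed coat transcript was thus gone by D2, when the embryo still held a high level. Psat7g002960 had seed coat medians of 105, 57.9, 15.8, 12.7 and 4.77 CPM at D1 to D5 and embryo medians of 71.9, 5.05, 1.33 and 0.109 CPM at D2 to D5. Psat0ss3348g0040 was highest at D2 in the seed coat, with 154, 176, 100, 36.8 and 11.7 CPM at D1 to D5, and fell to 4.87 CPM at D5 in the embryo, with 18.6 CPM at D3 and 18.0 CPM at D4.

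**Figure D2:**
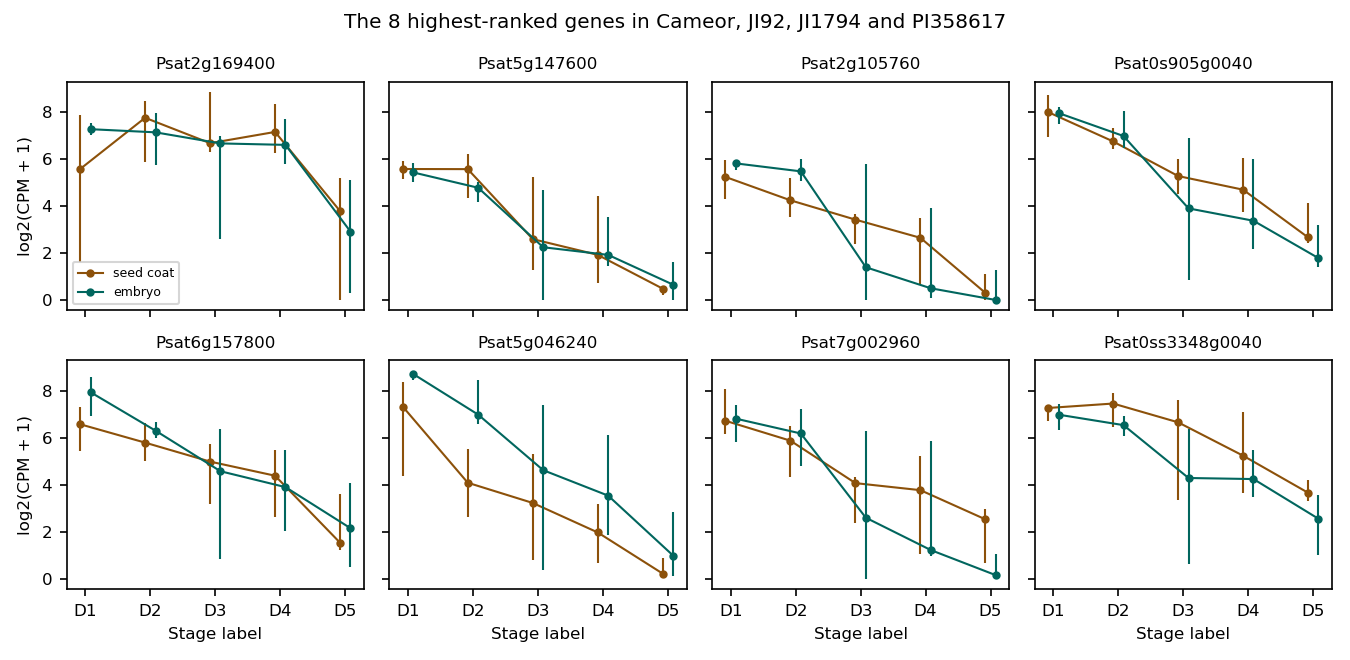
Level of the 8 highest-ranked genes, as log2(CPM + 1) (vertical axes), at each stage label (horizontal axes). Points are medians and bars run from the lowest to the highest library of Cameor, JI92, JI1794 and PI358617; the seed coat is brown, the embryo green, and the embryo at D1 holds Cameor and PI358617 only. Psat2g169400 keeps its level until D4, while Psat5g147600 and Psat2g105760 lose most of theirs by D3 in the embryo.

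The limit of the set cut through a continuous range. The last 2 genes inside it were Psat7g086280 and Psat5g107680, whose smaller falls were 1.93 and 1.92 log2 units. The first 2 outside were Psat5g245240 and Psat7g245480, with 1.92 and 1.91. For Psat5g107680 the embryo fall was the smaller one (1.92, against 2.34 in the seed coat), whereas Psat5g245240 fell by 5.68 in the embryo and missed the limit on its seed coat fall of 1.92. Membership depended on the scale: of the 150 genes, 84 were kept with TMM-scaled CPM, 94 with a pseudocount of 0.1 in place of 1, and 111 with FPKM. All 150 fell in both tissues under each of these scales.

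Averaged over the 4 lines, the largest step of the fall often lay at different stages in the 2 tissues. The embryo was scored from D2 only, so the stage at which its fall began cannot be read here. In the mean of the 4 lines 124 genes were highest at D1 in the seed coat, 23 at D2 and 3 at D3. In the embryo, from D2 to D5, 149 were highest at D2 and 1, Psat7g098080, was highest at D4. The largest step between neighbouring stages in the seed coat was from D4 to D5 for 85 genes, from D2 to D3 for 37, from D1 to D2 for 26 and from D3 to D4 for 2. In the embryo, where steps were counted from D2 only, it was from D2 to D3 for 122 genes and from D4 to D5 for 28. The D5 seed coats of Cameor and JI92 were 1 library each. The largest step was not always most of the fall: Psat2g105760 had completed 52.8% of its seed coat fall by D4 and still fell most from D4 to D5.

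The embryo count rested largely on JI1794. With JI1794 left out of the mean, the largest embryo step was from D2 to D3 for 79 genes and from D4 to D5 for 70. Leaving out PI358617, JI92 or Cameor instead gave 137, 128 and 116 genes with the D2 to D3 step. In the seed coat the D4 to D5 step was the largest for 70 to 103 genes when each line was left out. The share of the D2 to D5 fall that was complete by D3 had a median of 34.5% in the seed coat and of 59.3% in the embryo, or 42.2% in the embryo without JI1794. A level that was lower at each later stage from D2 to D5 was seen for 123 genes in the seed coat, 103 in the embryo and 93 in both.

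Some genes fell at the last step in the seed coat and others at the first. Psat7g023360 had completed 78.0% of its seed coat fall by D3, with medians of 544, 122, 40.5, 49.3 and 29.0 CPM at D1 to D5. Psat7g039040 and Psat5g155320 followed with 71.6% and 71.4%. At the other end Psat2g106040 was higher at D3 than at D2 in the seed coat (share by D3 -19.0%), with medians of 234, 108, 365, 176 and 19.0 CPM at D1 to D5. Psat7g196400 (-17.3%) and Psat2g148160 (-15.5%) were also higher at D3 than at D2 in the mean of the lines. Psat7g196400 held 80.6, 80.0, 75.6 and 65.2 CPM at D1 to D4 as medians and 16.6 CPM at D5.

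In the embryo the share by D3 ran from 13.6% for Psat7g098080 to 96.1% for Psat5g007520. Psat7g098080 had embryo medians of 18.7, 27.0 (0 to 49.3), 15.9 and 1.21 CPM at D2 to D5. In the embryo Psat2g064480 (25.2% by D3) kept 126, 114 and 88.8 CPM at D2 to D4 as medians and had 26.3 CPM at D5, and Psat4g015240 had 26.4%. The early extreme lost its embryo transcript at once: Psat5g007520 had 5.89 CPM at D2 and 0.374, 0.455 and 0.121 CPM at D3 to D5, although its D2 libraries ranged from 0.169 to 14.2 CPM. Psat6g240880 had 13.7 CPM at D2 (9.83 to 22.0) and 0.338 at D3 (0.046 to 2.51), and Psat0s3165g0080 had 81.6%.

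**Figure D3:**
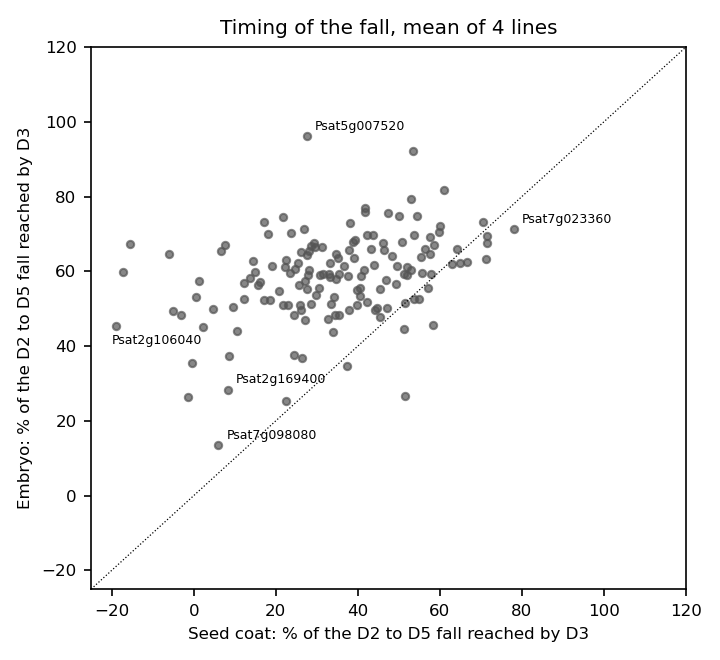
Share of the fall between D2 and D5 that was complete by D3, in percent, in the seed coat (horizontal axis) and the embryo (vertical axis) for each of the 150 genes, from the means of Cameor, JI92, JI1794 and PI358617. Most points lie above the dotted line of equal shares; a negative share marks a gene that was higher at D3 than at D2, as Psat2g106040 in the seed coat (-19.0%).

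Levels compared between genes need a scale per length, so FPKM was used. The highest FPKM of a gene over the tissue-by-stage means of the 4 lines ran from 1.14 to 683 with a median of 12.7, against a median of 1.33 over the 6166 genes that passed the limits on level and direction. A higher level than in those genes is fixed by the choice, since a large fall in log2(CPM + 1) needs a level well above 0. The most abundant member was Psat4g082480, with seed coat means of 683, 444, 444, 304 and 141 FPKM at D1 to D5 and embryo means of 414, 146, 131 and 50.9 FPKM at D2 to D5. Its libraries were uneven, from 60.0 to 991 CPM in the seed coat at D1. Psat5g198400 reached 301 FPKM in the seed coat at D1 and Psat3g138440 reached 271 FPKM in the embryo at D2.

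Psat3g138440 had its own course in each tissue. Its seed coat means were 99.2, 188, 217, 162 and 50.9 FPKM at D1 to D5, and its embryo means 271, 74.6, 31.9 and 2.49 FPKM at D2 to D5. The lowest maxima were 1.14 FPKM for Psat5g143560, 2.15 for Psat1g197440 and 2.59 for Psat1g155000, all in the seed coat at D1. The length implied by the ratio of counts to FPKM, relative to the median of the 6166 genes, was 1.21 as a median for the 150 genes, and 3.90 for Psat5g143560.

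By the chromosome number in their identifiers, 15 of the 150 genes were on chromosome 1, 17 on 2, 11 on 3, 14 on 4, 31 on 5, 17 on 6 and 26 on 7, and 19 were on unplaced scaffolds. Chromosome 5 held 20.7% of the 150 genes and 16.3% of the 6166, and chromosome 3 held 7.33% and 10.9%. Only 1 pair had neighbouring identifiers, Psat7g038920 and Psat7g039040. Their levels differed in form. In the embryo Psat7g038920 had 30.3, 1.17, 1.13 and 0.061 CPM at D2 to D5 as medians, and Psat7g039040 had 44.8, 13.9, 13.8 and 5.19 CPM.

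The fall was present in each of the 4 lines that chose the genes, at different sizes. In the embryo all 150 genes fell in all 4 lines, and in the seed coat 149 did. The exception, named after its values were seen, was Psat7g214800, which changed by -0.07 (D2 minus D5) in the seed coat of PI358617 and fell by 2.44 to 3.99 in the other lines. The median fall in the seed coat was 3.25 in JI1794, 2.70 in JI92, 2.20 in Cameor and 1.78 in PI358617. In the embryo the order was the same, with 4.00, 3.60, 2.96 and 2.22. JI1794 and JI92 thus ended lower relative to D2 than Cameor and PI358617 in both tissues. Seed coats at D5 were 1 library each in JI92 and Cameor.

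The D3 embryos differed most between accessions. The mean log2(CPM + 1) of the 150 genes at D3 was 1.18 and 1.13 in the 2 embryo libraries of JI1794, 2.57 and 2.59 in JI64, 3.11 and 3.08 in JI92, 3.19 and 3.18 in Cameor, 4.90 and 4.87 in PI358617, and 5.39 and 5.41 in JI261. In JI1794 the D3 embryos were below the D4 embryos (2.22 and 2.18) and near those at D5 (1.01 and 0.991), and 32 and 38 of the 150 genes had no count in them. Their share of counts in the embryo list was 23.1% and 23.4%, against 44.7% and 45.2% at D4 and 13.2% and 12.98% at D5. In PI358617 the D3 embryos were above the D2 embryos (4.65 and 4.67). The seed coats at D3 lay closer together, from 2.44 in JI64 to 4.23 in JI261. Whether a stage label marks the same point of development in each accession was not tested.

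Psat2g169400, Psat2g106040 and Psat5g054440 had the widest range of seed coat falls among the lines. Psat2g169400 had 0.231 and 0 CPM at D5 in JI1794, against 184 and 180 CPM at D2, while PI358617 had 30.2 and 24.4 CPM at D5 against 343 and 359 CPM at D2. Psat2g106040 had 0.501 CPM in both JI1794 libraries at D5, against 111 and 104 CPM at D2, and 147 CPM in the single Cameor library at D5, against 581 and 562 CPM at D2. Its fall was 6.18 log2 units in JI1794 and 1.95 in Cameor. Psat5g054440 was low in Cameor already at D2, with 0.615 and 0.850 CPM there and 47.6 and 34.9 CPM in JI1794, and none of the D5 seed coat libraries of the 4 lines exceeded 0.837 CPM.

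In the embryo the widest ranges belonged to Psat2g169400, Psat4g050200 and Psat2g009880. Psat4g050200 had 0.860 and 0.632 CPM at D5 in JI92, against 186 and 185 CPM at D2, and 16.7 and 18.9 CPM at D5 in Cameor, against 170 and 125 CPM at D2. Psat2g009880 had 3.54 and 3.52 CPM at D5 in JI1794 against 228 and 234 CPM at D2, and 56.1 and 51.2 CPM in PI358617 against 133 and 132 CPM. JI1794 showed the larger fall than PI358617 for all 3 genes.

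The question for the libraries outside the choice was whether the genes also fell there. All 150 passed the filter on low counts, and one edgeR quasi-likelihood fit over the 43 libraries gave adjusted p-values over 43670 features (Benjamini-Hochberg, threshold 0.05). Of 6 comparisons of a later with an earlier stage, 4 in the seed coat (JI261 D5 against D1, JI64 D4 against D2, and the 2017 JI64 and JI92 D4 against D2) and 2 in the embryo (JI64 D4 against D2 and JI261 D5 against D3), 69 genes were lower in all 6, 58 in 5, 17 in 4 and 6 in 3. No gene was lower in fewer than 3. Of all 43670 features, 1.21% were lower in all 6, 2.11% in 5, 2.94% in 4 and 4.88% in 3, while 69.6% were lower in none. The 3 JI64 seed coat libraries that stood apart share the estimate of spread in this fit. Without them, between 118 (2017 JI92) and 148 (JI64 embryo) of the 150 genes were lower in each of the 6. Of the 43402 features tested then, 5365 (JI64 seed coat) to 7600 (JI64 embryo) were lower.

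In the JI261 seed coat at D5 against D1, 127 of the 150 genes were lower and 1 was higher, where 12.6% of all features tested were lower and 10.5% higher. The median log2 fold change of the 150 genes was -3.19, against 0 over all features. Against D3, 120 of the 150 were lower at D5 and 0 higher (8.61% and 9.95% of all features), with a median of -2.46. Psat5g155320 had 4.73 and 4.76 CPM at D5 and 59.6 and 62.6 CPM at D1 (log2 fold change -3.48 with SE 0.18, edgeR adjusted p = 2.84e-13). Psat5g153440 had 1.44 and 1.60 CPM at D5 and 36.1 and 34.4 CPM at D1 (-4.32, SE 0.27, adjusted p = 1.12e-11). The D5 and D1 libraries of both genes were far apart and their replicates close.

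Psat5g147600 behaved differently before its fall in JI261. It had 1.05 and 1.62 CPM at D5 and 66.7 and 69.2 CPM at D1 (log2 fold change -5.46 with SE 0.33, edgeR adjusted p = 1.25e-11), but 142 and 143 CPM at D3. Psat2g169400 was not lower at D5 than at D1 past the threshold in JI261, with means of 21.4 and 33.3 CPM (-0.42, SE 0.26, edgeR adjusted p = 0.307). Against its D3 level of 602 and 379 CPM the fall to 20.6 and 22.3 CPM at D5 was -5.03 (SE 0.31, edgeR adjusted p = 1.80e-11).

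In the JI64 seed coat of the main set at D4 against D2, 125 of the 150 genes were lower and 0 higher (7.08% and 5.5% of all features), with a median log2 fold change of -2.52. At D5 against D2, 141 were lower and 1 was higher (18.3% and 12.2%), with a median of -5.17. Both D5 libraries are among those that stood apart, with 64 and 24 of the 150 genes at 0 counts, and no library of JI64 at D5 remains without them. Their part in the D5 result was not tested. Psat5g147600 had 0.757 and 0.683 CPM at D4 and 86.6 CPM in both libraries at D2 (log2 fold change -6.83 with SE 0.36, edgeR adjusted p = 4.50e-12), and Psat0s905g0040 had 6.20 and 6.78 CPM at D4 and 110 and 115 CPM at D2 (-4.04, SE 0.31, adjusted p = 9.33e-10).

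The 2017 seed coats covered the same stages in JI64 and JI92. In JI64, 143 genes were lower at D4 than at D2 and 0 higher (11% and 9.42% of all features), with a median log2 fold change of -3.04. The folds were close to each other there: the 25th and 75th percentiles of the 150 were -3.57 and -2.52. In JI92, 100 genes were lower and 3 higher (11.3% and 10.1%), with a median of -1.95, or -1.92 with 6 genes that had no count at D4 set at their bound. In JI92 these percentiles were -3.37 and -0.93. The embryo list took 8.66% and 8.44% of the counts of the JI92 D4 libraries and the seed coat list 2.44% and 2.57%, against 3.98% and 4.06%, and 9.48% and 9.49%, at D2. The part of this difference in the JI92 counts was not tested.

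Psat2g105760 had no count in the 2017 JI92 libraries at D4 and a mean of 8.85 CPM at D2, at least 426-fold lower at D4 (edgeR adjusted p = 1.40e-09). In the 2017 JI64 seed coat it had 1.73 and 2.19 CPM at D4 and 30.5 and 33.5 CPM at D2 (log2 fold change -3.79 with SE 0.44, edgeR adjusted p = 1.02e-06). In the main JI64 seed coat it had 0.274 and 0.349 CPM at D4 and 18.9 and 17.6 CPM at D2. Bounds of this kind set a group without counts at 3 counts over its libraries.

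The embryos gave the highest shares. In JI64 at D4 against D2, 148 of the 150 genes were lower and 1 was higher (14.9% and 12.7% of all features), with a median log2 fold change of -5.46; 26 of the genes had no count at D4. In JI261 at D5 against D3, 147 were lower and 0 higher (13.2% and 9.78%), with a median of -3.43. Psat5g032960 had 0.405 and 0.348 CPM in the JI64 embryo at D4 and 61.5 and 59.2 CPM at D2 (-7.24, SE 0.26, edgeR adjusted p = 7.17e-17). Psat5g090240 had 0.194 and 0.099 CPM at D4 and 60.0 and 57.9 CPM at D2 (-8.59, SE 0.36, adjusted p = 1.15e-15).

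Psat2g106040 was close to absent from the JI64 embryo at D4. It had 0.049 and 0 CPM there, 3 counts in all, and 228 and 223 CPM at D2 (edgeR adjusted p = 5.40e-17). In the JI64 seed coat it still had 66.3 and 52.1 CPM at D4, against 288 and 285 CPM at D2 (log2 fold change -2.19 with SE 0.25, edgeR adjusted p = 8.64e-07). In JI261 its embryo had 7.27 and 9.09 CPM at D5 and 198 and 230 CPM at D3 (-3.94, SE 0.27, adjusted p = 5.86e-11).

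**Figure D4:**
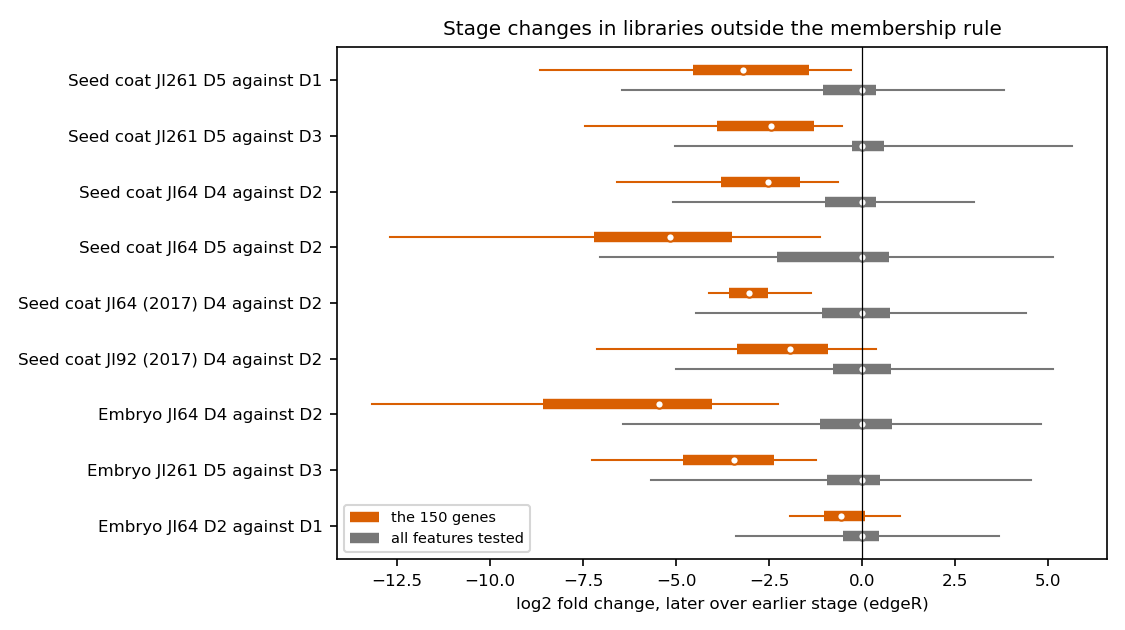
Log2 fold change of the later over the earlier stage (horizontal axis, edgeR) in 9 comparisons of libraries outside the choice (vertical axis), for the 150 genes (orange) and all 43670 features tested (grey). White points are medians, thick bars run from the 25th to the 75th percentile and thin bars from the 5th to the 95th; the medians of the 150 genes lie between -5.46 and -1.95 except for the JI64 embryo at D2 against D1 (-0.57).

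A few genes went up between the stages compared. Psat6g077000 was the exception in JI64. In the embryo it had 3.85 and 3.39 CPM at D4 and 0.833 and 1.36 CPM at D2 (log2 fold change 1.79 with SE 0.45, edgeR adjusted p = 0.0028), after 22.9 and 24.2 CPM at D1. In the seed coat it had 0.371 and 0.523 CPM at D4 and 2.30 and 2.70 CPM at D2. The 2 D5 libraries that stood apart held 2.79 and 6.70 CPM (D5 against D2 2.61, SE 0.46, edgeR adjusted p = 4.89e-05). Among the stages given here, which leave out D3, its level in JI64 was lowest at D2 in the embryo and at D4 in the seed coat.

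Psat3g134680 was the gene that was higher in the JI261 seed coat at D5, with 79.9 and 86.9 CPM, than at D1, with 49.4 and 44.8 CPM (log2 fold change 1.04 with SE 0.32, edgeR adjusted p = 0.0205). It did not pass the threshold under 5 of the alternatives tried. In the 2017 JI92 seed coat Psat0s4062g0080 had 6.77 and 6.41 CPM at D4 and 0.931 and 4.01 CPM at D2 (1.76, SE 0.50, edgeR adjusted p = 0.0112), with 27.5 and 28.9 CPM at D1. Psat6g205880 had 21.4 and 26.1 CPM at D4 and 10.3 and 13.0 CPM at D2 (1.37, SE 0.34, adjusted p = 0.00402), and Psat5g107680 had 23.2 and 25.5 CPM at D4 and 17.3 and 18.6 CPM at D2 (0.79, SE 0.21, adjusted p = 0.00718). All 3 were far higher at D1 than at either later stage.

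D1 was compared with D2 in the embryo, where the choice had used no D1 library. The mean level was lower at D2 than at D1 in each accession with both stages. It was 4.66 at D2 and 5.80 at D1 in PI358617, 4.69 and 5.46 in JI64, and 5.02 and 5.53 in Cameor, and 118, 121 and 127 of the 150 genes were higher at D1. Of the 19493 annotated genes with a highest stage mean of at least 1, 71.5% were higher at D1 in PI358617, 62.0% in JI64 and 73.7% in Cameor. The D2 embryos of PI358617 and Cameor, but not those of JI64, were among the libraries that chose the genes. The PI358617 embryos at D1 held only 1.43% of their counts in the embryo list, against 52.8% and 52.2% at D2. In JI64, 23 genes were lower at D2 and 7 higher (4.29% and 4% of all features), with a median log2 fold change of -0.57. Without the 3 JI64 seed coat libraries that stood apart, 65 were lower and 12 higher, where 4486 and 3504 of 43402 features passed the threshold.

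The genes that rose most between D1 and D2 in the JI64 embryo then fell as the others did. Psat7g254800 had 49.9 and 50.7 CPM at D2 and 21.5 and 17.7 CPM at D1 (log2 fold change 1.64 with SE 0.34, edgeR adjusted p = 0.0023), and 0.826 and 0.422 CPM at D4. Psat7g098080 had 29.7 and 26.4 CPM at D2 and 11.1 and 13.0 CPM at D1 (1.49, SE 0.37, adjusted p = 0.0106). Psat6g037200 was an abundant gene, with 711 and 719 CPM at D2 and 359 and 263 CPM at D1 (1.48, SE 0.33, adjusted p = 0.00438). Psat5g197440 had 28.9 and 28.8 CPM at D2 and 15.1 and 13.6 CPM at D1 (1.29, SE 0.30, adjusted p = 0.00595). Psat4g199280 had 7.49 and 6.38 CPM at D2 and 4.85 and 3.38 CPM at D1 (1.03, SE 0.30, adjusted p = 0.029), and no count at D4.

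Seed coat and embryo were compared at the same stages in JI64 and JI261. Averaged over D3 and D4 of both accessions, the seed coat had the higher level of 41 of the 150 genes and the lower level of 54 (20.2% and 19% of all features), with a median log2 fold change of -0.05, and this median lay between -0.27 and 0.18 under the alternatives. By limma, with log2(FPKM + 0.1) as the level, 60 genes were higher and 51 lower, against 13609 and 9497 of 43670 features. On CPM scaled to the library total the direction differed between the stages, and its size between the accessions. At D3 the mean level was lower for seed coats than for embryos, with 2.44 against 2.58 for JI64 and 4.18 against 5.40 for JI261. At D4 the seed coats were higher, with 2.36 against 1.01 for JI64 and 3.75 against 3.68 for JI261. The TMM factors of JI261 at D4 were 1.16 in both seed coat libraries and 0.68 in both embryo libraries. Whether the small difference in JI261 at D4 keeps its direction with TMM scaling was not tested.

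Among the genes higher in the seed coat Psat3g134680 had 75.8 and 69.4 CPM in the JI64 seed coat at D3 and 51.3 and 53.6 CPM at D4, against 3.65 and 4.72 CPM and no count in the embryo. In JI261 it had 46.1 and 54.5 CPM in the seed coat at D3, against 203 and 185 CPM in the embryo, and 97.8 and 95.7 CPM at D4, against 37.5 and 36.5 CPM. Its averaged log2 fold change was 4.15 (SE 0.25, edgeR adjusted p = 7.23e-13), a value that depends on the prior count set for the JI64 embryo at D4. Psat2g134000 (3.67, SE 0.31, edgeR adjusted p = 1.91e-10) and Psat6g077240 (3.51, SE 0.31, edgeR adjusted p = 9.49e-10) were likewise without a count in the JI64 embryo at D4.

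Among the genes lower in the seed coat Psat6g012960 had 0.277 and 0.324 CPM in the JI64 seed coat at D3, against 16.4 and 18.2 CPM in the embryo, and 12.3 and 7.92 CPM in the JI261 seed coat at D3, against 102 and 106 CPM in the embryo (averaged log2 fold change -3.58, SE 0.27, edgeR adjusted p = 1.18e-11). At D4 in JI64 both tissues were low, with 0.580 and 0.276 CPM in the seed coat and 0.599 and 0.584 CPM in the embryo. Psat1g164840 (-3.31, SE 0.46, edgeR adjusted p = 9.85e-07) and Psat0s4062g0080 (-3.16, SE 0.27, edgeR adjusted p = 1.63e-10) were the next lowest.

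JI64 had seed coats and embryos at D2 and at D4, so the change between these stages could be compared between the tissues. The fall was larger in the embryo for 101 of the 150 genes and larger in the seed coat for 3 (edgeR interaction term, 8.8% and 7.62% of all features), and the median of the difference, seed coat minus embryo, was 2.78 log2 units. With limma this median was 0.90 on log2(FPKM + 1) and 1.79 on log2(FPKM + 0.1). None of the 3 libraries that stood apart is at D2 or D4. The embryo list took 20.2% and 19.6% of the counts of the JI64 embryos at D4. In the D4 embryos of Cameor, JI92, JI1794 and JI261 it took 41.0% to 49.3%. Whether D4 marks matching points of development in the 2 tissues was not tested. Psat5g215840 had 4.01 and 5.23 CPM in the seed coat at D4 and 10.2 and 7.30 CPM at D2, and no count in the embryo at D4 against 80.4 and 83.6 CPM at D2. Psat3g134680 had no count in the embryo at D4 either, against 80.6 and 74.5 CPM at D2, and was at least 3676-fold lower there (edgeR adjusted p = 3.82e-14), while its seed coat had 51.3 and 53.6 CPM at D4 and 96.4 and 89.7 CPM at D2. For Psat7g038920 the embryo had no count at D4 and 20.7 and 18.9 CPM at D2, and the seed coat 4.77 and 8.69 CPM at D4 and 16.9 and 16.2 CPM at D2.

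The 3 genes with the larger fall in the JI64 seed coat were Psat6g077000, Psat5g089440 and Psat1g175520. Psat5g089440 had 0.258 and 0.116 CPM in the seed coat at D4 and 23.7 and 22.1 CPM at D2, and in the embryo 0.453 and 0.460 CPM at D4 and 9.97 and 9.68 CPM at D2 (difference -2.51, SE 0.79, edgeR adjusted p = 0.0271). Psat1g175520 had 0.934 and 0.566 CPM in the seed coat at D4 and 83.4 and 102 CPM at D2, and in the embryo 1.22 and 0.857 CPM at D4 and 31.7 and 31.9 CPM at D2 (-2.0, SE 0.55, edgeR adjusted p = 0.0109). Both ended at similar low levels in the 2 tissues and had the higher D2 level in the seed coat.

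**Figure D5:**
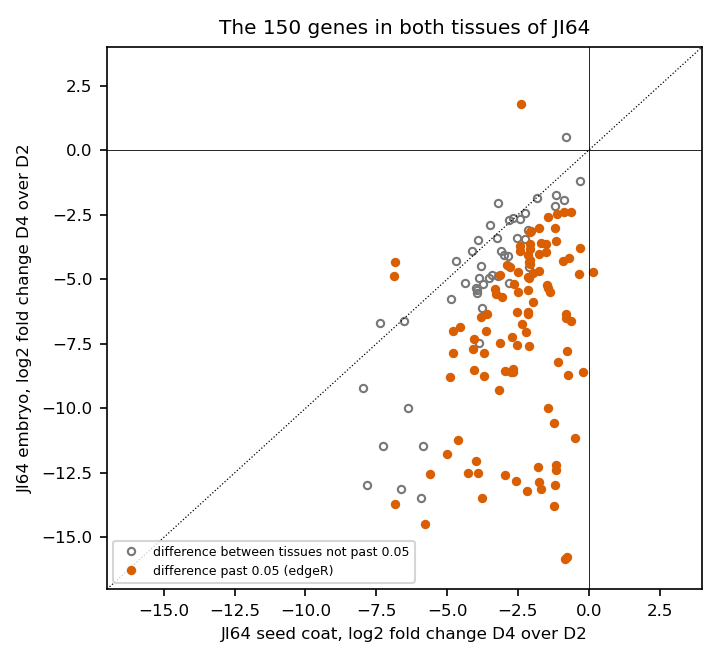
Log2 fold change of D4 over D2 (edgeR) in the JI64 seed coat (horizontal axis) and the JI64 embryo (vertical axis) for the 150 genes. Filled points are the 104 genes whose change differed between the tissues past an adjusted p of 0.05, and the dotted line marks equal change; 101 of them lie below it and 3 above. The embryo values of the 26 genes with no count in the embryo at D4 depend on the prior count. Values near -13 and lower belong to genes with few or no counts there and depend on it too.

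The 2017 seed coats were set beside the main set. At D2 in JI92 the mean level of the 150 genes was 3.59 in 2017 and 4.54 in the main set, and at D4 it was 1.83 and 2.70, whereas at D1 it was 5.46 and 5.31. At D2, 17 of the 150 genes were higher in 2017, against 62.3% of the 19493 annotated genes with a highest stage mean of at least 1. In JI64 the means were 5.52 in 2017 and 5.38 in the main set at D1, 4.79 and 4.54 at D2, and 2.20 and 2.36 at D4, and 124 of the 150 genes were higher in 2017 at D2, against 50.1% of those annotated genes. Without replicate 2 of the main set at D1, which goes against its label, the D1 level was 5.52 in the single 2017 library and 4.99 in the single main library, an alternative added after seeing the data. The set and whatever else changed between the sets cannot be told apart. Psat5g147600 had 4.32 and 2.05 CPM in the 2017 JI92 seed coat at D2, against 74.8 and 74.6 CPM in the main set. Psat5g300000 had 0 and 0.099 CPM, against 15.7 and 18.2 CPM, and Psat1g141360 had 1.01 and 1.80 CPM, against 15.8 and 21.2 CPM.

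The study set wild against domesticated peas. Counts of 3 wild and 2 domesticated accessions were summed per accession. The seed coat sums left out D2, and the embryo sums held D3 and D4. These sums include libraries of JI1794, Cameor and JI92 that chose the genes, so the values are a description and support nothing about them. By edgeR none of the 150 genes passed the threshold in either tissue, and none of all features did (0% higher and 0% lower). An unadjusted p under 0.05 was reached by 5 of the 150 genes in the seed coat, against 1437 of 35034 features, and by 2 in the embryo, against 1274 of 28091. DESeq2 called 1 of the 150 genes higher in wild seed coats, against 1.24% of all features, and 1 lower, against 1.5%. In the embryo it called 0 higher, against 1.94%, and 1 lower, against 1.42%. With single libraries as replicates, which treats libraries of 1 accession as independent, 4 of the 150 genes were higher and 0 lower in wild embryos, against 16.2% and 8.59% of all features.

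The median log2 fold change of the 150 genes, wild over domesticated, depended on single accessions. In the seed coat it was 0.43, with 107 genes positive. It was 0.25 without the 3 JI64 libraries that stood apart, 0.22 without JI261, 0.11 without Cameor and 0.96 without JI92, and 0.10 and 0.15 with limma on log2(FPKM + 1) and log2(FPKM + 0.1). In the embryo it was 0.27. There it was -1.71, with 141 of the 150 genes negative, without JI261, whose D3 embryos had the highest level of all accessions. It was 0.68 without JI64, 0.72 without JI1794, 0.01 with limma on log2(FPKM + 1) and -0.30 on log2(FPKM + 0.1).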

How the data were processed

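Seed coats and embryos were sequenced after enrichment of messenger RNA with oligo(dT) beads and random priming, per the labels' protocols. Reads were mapped to the Cameor v1.0 genome, per the series' design text, and HISAT2 2.1.0 and StringTie 2.1.0 appear, with no role, in the submitters' processing notes. The sources used here do not state how reads were counted, whether strand was used or how reads of near-identical or overlapping genes were assigned. Read counts per feature were deposited by the authors as whole numbers, without normalization. The authors also deposited FPKM values, which follow the count divided by a length and a library total. The tables hold 10 repeated identifiers.

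From the counts, CPM was count divided by the library total, times 1000000. Tests used edgeR 4.0.16 in R 4.3.3 (TMM, default filter on low counts, robust quasi-likelihood F test, Benjamini-Hochberg adjustment, threshold 0.05), with tissue, accession, set and stage as 1 factor. Wild and domesticated accessions were compared on counts summed per accession, with PI358617 left out. Alternatives were RLE, no filter, DESeq2 1.42.0, limma 3.58.1 with a pseudocount of 1 or 0.1 on log2 FPKM, a replicate block, leaving out libraries, and single libraries as replicates. Fits with 1 library left out kept the dispersion trend of the full fit. Scripts were tested on simulated data. Descriptions used Python 3.11.15.

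The genes, the lists and the rules were chosen with earlier results of these data known. Genes named are the 8 of highest rank, those around the limit, extremes of FPKM, of timing and of range among lines, those with the lowest p or the opposite direction in each comparison of stages or tissues, neighbours, and the largest differences between sets. All values rest on 56.97 M to 104.01 M counts per library. Bounds from a count of 0 cover counting error only.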

Additional observations from a re-analysis of the deposited data

Results flagged for a closer look

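The change between D2 and D4 differed between the tissues of JI64. By the interaction term of the edgeR fit (adjusted p under 0.05), 101 of the 150 genes had the more negative change in the embryo and 3 in the seed coat. With single alternatives the first count ran from 72 (limma on log2(FPKM + 1)) to 116 (without the 3 JI64 seed coat libraries that stood apart). In those 2 settings 3642 of 43670 and 5346 of 43402 features passed in that direction. Whether D4 marks matching points of development in the 2 tissues was not tested. The differences of the log2 fold changes, seed coat minus embryo, were 15.0 for Psat3g134680, 14.98 for Psat5g215840 and 12.55 for Psat7g038920. These 3 genes had no count in the embryo at D4, so the fitted values depend on the prior count and are no bounds. In the other direction the differences were -4.20 for Psat6g077000, -2.51 for Psat5g089440 and -2.0 for Psat1g175520. The call for Psat5g089440 was lost under 9 alternatives and that for Psat1g175520 under 3.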

How the results depend on the processing

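The 9 comparisons of stages kept the direction of their median under all alternatives, and the counts of genes lower at the later stage stayed within 1.5 times except for the JI64 embryo at D2 against D1. There 23 genes were lower and 7 higher (4.29% and 4% of all features). DESeq2 gave 35 and 12 (3011 and 3015 of 25890 features). Limma on log2(FPKM + 1) gave 64 and 4 (2348 and 1311 of 43670), and on log2(FPKM + 0.1) 1 higher (1071 of 43670). Without the 3 JI64 seed coat libraries that stood apart the counts were 65 and 12 (4486 and 3504 of 43402). With 1 library left out, 7 to 13 were lower and 1 to 5 higher. Each of these fits left 1 library in a group. Counts over all features are not given for those fits, so nothing is read from their calls. The cause of the differences between settings was not tested. For the difference between JI64 tissues, 3 genes had the larger fall in the seed coat. Limma on log2(FPKM + 1) gave 8 (4377 of 43670 features), and leaving out the 3 libraries gave 5 (5148 of 43402). Of wild over domesticated accessions, with 0 calls, DESeq2 called 1 gene lower in the embryo, and 1 lower and 1 higher in the seed coat. Single libraries as replicates called 4 higher in the embryo (16.2% of all features), and 3 lower and 37 higher in the seed coat (6828 and 7611 of 39257 features). Without either replicate number the count stayed at 0. Seed coats of JI64 at D5 against D2 could not be fitted without the 3 libraries. All features shifted by -0.12 and -0.61 (median log2) in that comparison with limma on FPKM, and by -0.11 between tissues with DESeq2. Of 501 values of named genes, 450 kept their side of the threshold, 43 lost the call, 8 gained it and 0 reversed.

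Differences between replicate numbers correlated at -0.067 to 0.219 between the groups compared (9 pairs of groups). The value of 0.219 was that of the JI64 seed coat at D4 and D2, and the other pairs reached at most 0.031. With a replicate block, 126 genes were lower in the JI261 seed coat at D5 against D1 (4582 of 43670 features) and 115 against D3 (3036). In the JI64 seed coat 119 were lower at D4 against D2 (2478), 141 at D5 against D2 (7276) and 142 in 2017 (3920). In the 2017 JI92 seed coat 94 were lower (4194). In the embryo 147 were lower in JI64 at D4 against D2 (5955), 16 at D2 against D1 (1333) and 145 in JI261 (5205). The block called 1 gene lower in wild accessions in each tissue. The share over all features is not given for these calls, so nothing is read from them. In the JI64 tissue difference it called 93 and 2 genes (3343 and 2845 of 43670 features). Leaving out 1 line kept 108 to 124 of the 150 genes under the rule, and either replicate number 133. TMM-scaled CPM kept 84 and a pseudocount of 0.1 kept 94. The counts of timing without each line were added after seeing the data. Precision is limited by the 1 or 2 libraries per group and, for genes near 0 counts, by depth.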
